A study of Homo sapiens with 4 samples.

Results

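To describe how melatonin treatment and time in culture relate to regulators of alternative exons, 10 genes were chosen by name. Their measured values were not used for the choice, but earlier results of these data were known when it was made. The 10 genes were RBFOX2, ESRP1, ESRP2, PTBP1, PTBP3, MBNL1, MBNL2, QKI, CELF1 and RBM47, and each was found once among the 58302 genes in the files. HepG2, a human hepatocellular carcinoma cell line carried here as wild type, was treated with 1 mM melatonin or with its solvent DMSO, each for 24 h or 48 h, and 1 mRNA-seq library was made for each of the 4 conditions. With 1 library per condition no difference below has a replicate check, so no p-value is given, and the intervals cover counting error only. The unit is FPKM, in which a read count is scaled to the length of the gene and to the size of the library. The reads behind each FPKM could be recovered, because the product of FPKM and length went up in equal steps within a library, and 21616676 to 23086025 reads per library lay on genes. Where 4 values are listed for a gene, those of 24 h precede those of 48 h, and at each time DMSO precedes melatonin.

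The libraries carried the marker genes of the labelled line. Of 9 hepatocyte and hepatoblast genes all were detected, and their summed FPKM ran from 7413 with melatonin at 48 h to 9381 with melatonin at 24 h. Albumin (ALB) lay between 2717 and 3343 FPKM. The fibroblast collagens COL1A2 and COL3A1 and the T cell gene CD3E had 0 reads in every library, and the leukocyte gene PTPRC had an FPKM of at most 0.00589. The summed FPKM of the 4 fibroblast genes ran from 0.804 to 4.33, nearly all of it PDGFRB, that of the 3 leukocyte genes from 729 to 1069, nearly all of it the lysozyme gene LYZ, and that of the 3 endothelial genes from 0.543 to 1.18. Mitochondrial genes held between 9.77% (DMSO, 48 h) and 20.0% (DMSO, 24 h) of the reads. With mitochondrial genes left out of the library size, the median log2 fold change given below for melatonin over DMSO at 48 h moved from -0.36 to -0.29. The part of the marker differences in the results below was not tested.

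Whether an alternative exon is kept or left out depends on proteins that bind the pre-mRNA near it, and often on the side of the exon on which they bind. RBFOX, MBNL, CELF and QKI proteins are known for exon switches during development of muscle, heart and brain, ESRP proteins for those of epithelial cells, and PTBP proteins as repressors that bind stretches rich in pyrimidines. Many of these genes contain alternative exons of their own that are controlled by the same family. In liver, ESRP2 is known for its part in postnatal maturation of hepatocytes.

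Exons of this kind are shown first, because the gene totals reported here pool transcripts with and without them. MBNL1 and MBNL2 share a 54 bp coding exon, a whole number of codons, whose inclusion in MBNL1 is known to favour nuclear protein. PTBP1, PTBP2 and PTBP3 each hold a 34 bp exon, which is no whole number of codons. Skipping of it in PTBP1 and in PTBP2 is promoted by PTBP1 protein and is known to lead to decay of the mRNA. The sequences are from GENCODE 44 transcripts on hg38, written 5′ to 3′, and capitals mark bases that differ from the first gene of each set.
MBNL1, chr3:152446704-152446757, forward strand: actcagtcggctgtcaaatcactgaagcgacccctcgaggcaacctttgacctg
MBNL2, chr13:97356796-97356849, forward strand: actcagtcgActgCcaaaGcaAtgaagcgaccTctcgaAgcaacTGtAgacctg
PTBP1, chr19:807869-807902, forward strand: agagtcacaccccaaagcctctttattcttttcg
PTBP2, chr1:96806419-96806452, forward strand: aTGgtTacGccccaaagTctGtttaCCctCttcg
PTBP3, chr9:112231380-112231413, reverse strand: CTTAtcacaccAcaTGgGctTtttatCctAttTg

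The MBNL2 exon had the same base as the MBNL1 exon at 45 of 54 positions (83.3%). The PTBP2 and PTBP3 exons had the same base as the PTBP1 exon at 25 (73.5%) and 22 (64.7%) of 34 positions. In GENCODE 44 the exon was part of 5 of 24 MBNL1 transcripts, 4 of 11 MBNL2 transcripts, 9 of 24 PTBP1 transcripts, 12 of 24 PTBP2 transcripts and 5 of 8 PTBP3 transcripts. Inclusion of these exons was not analysed here.

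Of the 10 genes, 9 were expressed and ESRP1 was at or under the limit of detection. PTBP1, the general pyrimidine tract binding repressor, was the highest in every library, at 56.4 to 78.4 FPKM. PTBP3, CELF1, ESRP2 and MBNL2 followed between 10.4 and 19.3 FPKM, then QKI and RBFOX2 between 8.0 and 11.7 FPKM, MBNL1 between 4.65 and 7.72 FPKM, and RBM47 between 0.995 and 1.52 FPKM. Neighbours in that order were not all apart. The 95% exact Poisson intervals of ESRP2 and CELF1 overlapped in both libraries of 24 h, those of MBNL2 and CELF1 in both libraries of 48 h, those of PTBP3 and ESRP2 with DMSO at 48 h, and those of RBFOX2 and QKI with melatonin at 24 h.

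**Figure D1:**
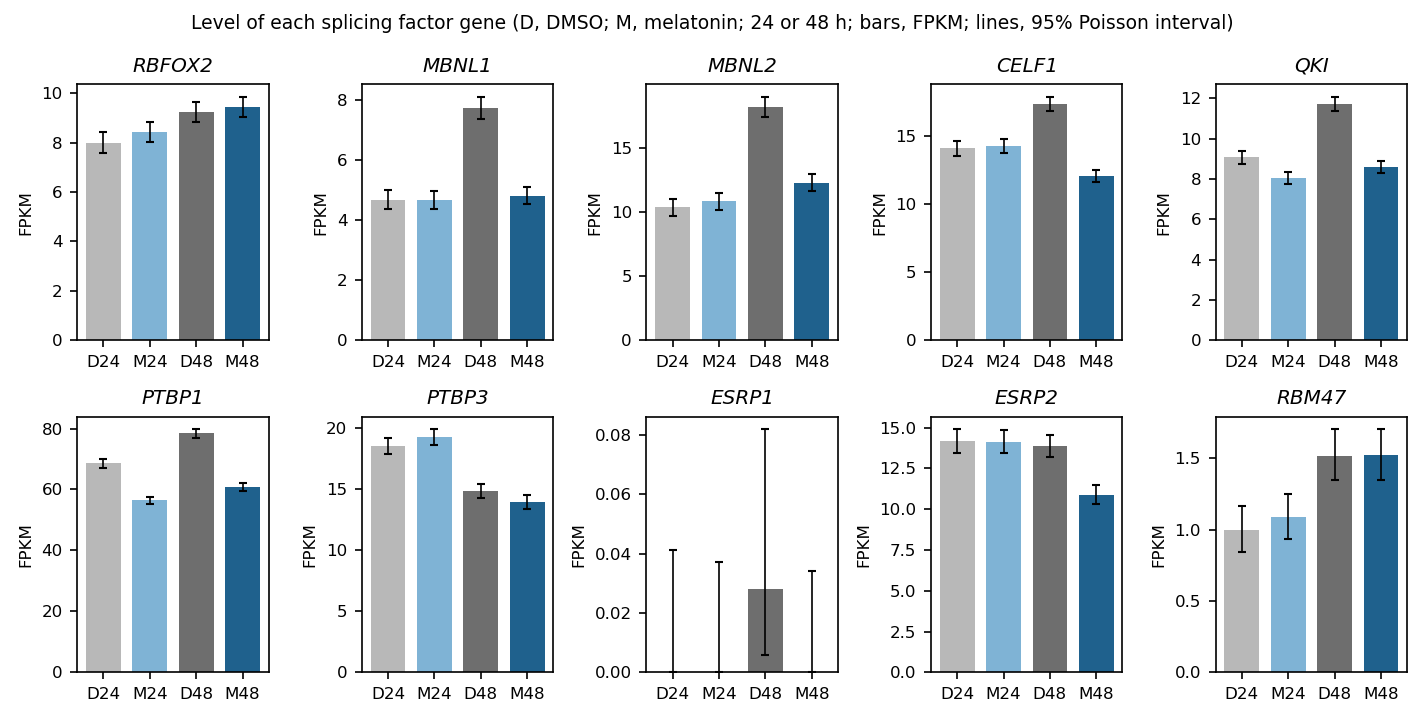
Level of each of the 10 genes in the 4 libraries (D for DMSO, M for melatonin, with the hours), as bars of FPKM on a linear axis from 0 that differs between panels, with 95% exact Poisson intervals of the reads as lines. MBNL1, MBNL2, CELF1, QKI and PTBP1 were highest with DMSO at 48 h (D48), ESRP1 had 3 reads in that library and 0 in the others, and RBFOX2 stayed within 8.0 to 9.46 FPKM.

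ESRP1 (chromosome 8 of hg38 from 94641074 to 94707466), one of a pair of epithelial splicing regulators, had 0 reads in both libraries of 24 h and with melatonin at 48 h, and 3 reads with DMSO at 48 h. A count of 0 allows an FPKM of up to 0.0335 with DMSO at 24 h, where 3 reads set the limit, and of less in the deeper libraries. The upper end of the two-sided Poisson interval, drawn in the plot of levels, was 0.0412 FPKM there. No ratio is given for ESRP1. Its paralogue ESRP2 (chromosome 16 from 68229111 to 68238102) had between 1344 and 1690 reads per library, so the ESRP transcripts in these cells came from ESRP2 at this depth.

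On the FPKM scale 7 of the 9 measured genes were lower with melatonin than with DMSO at 48 h by more than counting error, and none was higher. MBNL1, MBNL2, CELF1, QKI, PTBP1 and ESRP2 stood at 0.62 to 0.79 of the DMSO level. That PTBP3 was among the 7, and that RBFOX2 was not higher, depended on the scale. The median log2 fold change of the 9 genes, on the log2(FPKM + 1) scale, was -0.36, beside -0.02 over the 13805 genes that reached 1 FPKM in one of the libraries compared. Among the 11350 genes with 50 reads or more throughout, which include these 9, the counting interval of the ratio lay wholly below 1 for 35.0% and wholly above 1 for 33.4%. Genes with more reads have narrower intervals, and these shares, here and below, were not matched for read depth. In these bulk libraries fewer cells that express a gene and less RNA per cell cannot be told apart.

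MBNL1 (muscleblind-like 1, chromosome 3 from 152243828 to 152465780) had 4.68, 4.65, 7.72 and 4.81 FPKM. The library of DMSO at 48 h was the high one and the other 3 had overlapping intervals. The ratio of melatonin over DMSO at 48 h was 0.623 (95% counting interval 0.576 to 0.673), from 1067 and 1692 reads. MBNL2 (chromosome 13 from 97221434 to 97394120), which like MBNL1 promotes adult splice forms, had 10.4, 10.8, 18.2 and 12.3 FPKM, and again DMSO at 48 h was the high library. Its ratio at 48 h was 0.675 (0.629 to 0.724). On the log2(FPKM + 1) scale MBNL1 was lower than all but 5.99% and MBNL2 lower than all but 7.37% of the 11350 genes.

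CELF1 (CUGBP Elav-like family member 1, chromosome 11 from 47465933 to 47565569), which in muscle favours fetal splice forms where MBNL1 favours adult ones, had 14.1, 14.3, 17.4 and 12.1 FPKM. It was highest in the DMSO library and lowest in the melatonin library of 48 h. Its ratio at 48 h was 0.695 (0.662 to 0.730), close to that of MBNL2. QKI (chromosome 6 from 163414000 to 163578596), a KH domain protein known in glia, smooth muscle and circular RNA formation, had 9.07, 8.05, 11.7 and 8.60 FPKM, highest in the DMSO library of 48 h. Its ratio at 48 h was 0.733 (0.700 to 0.766). MBNL genes and CELF1 were thus lower together in the melatonin library of 48 h, although their proteins are known to act in opposite directions on a set of muscle exons.

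PTBP1 (chromosome 19 from 797075 to 812327) had 68.5, 56.4, 78.4 and 60.9 FPKM. The melatonin library was the lower one at both times. The ratio at 48 h was 0.776 (0.755 to 0.797), from 9303 and 11840 reads. ESRP2 had 14.2, 14.1, 13.9 and 10.9 FPKM, with the melatonin library of 48 h as the low one, and its ratio at 48 h was 0.785 (0.731 to 0.844). PTBP3 (chromosome 9 from 112217716 to 112333667), a paralogue of PTBP1 known from blood cells, had 18.6, 19.3, 14.9 and 14.0 FPKM. It was lower in both libraries of 48 h, and the ratio of melatonin over DMSO at 48 h, 0.938 (0.889 to 0.991), was the one nearest to 1 among the 7.

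On the FPKM scale the other 2 genes did not differ between melatonin and DMSO by more than counting error at either time. RBFOX2 (chromosome 22 from 35738736 to 36028425), which recognises the word UGCAUG, had 8.0, 8.43, 9.26 and 9.46 FPKM, and its ratio was 1.05 (0.982 to 1.13) at 24 h and 1.02 (0.961 to 1.09) at 48 h. RBM47 (chromosome 4 from 40423267 to 40630875), an RNA-binding protein that can also assist the editing enzyme APOBEC1, had 0.995, 1.08, 1.52 and 1.52 FPKM. From 156 to 288 reads per library, its ratio was 1.09 (0.877 to 1.36) at 24 h and 1.00 (0.847 to 1.18) at 48 h, so that a difference within these bounds was not detectable at this depth.

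**Figure D2:**
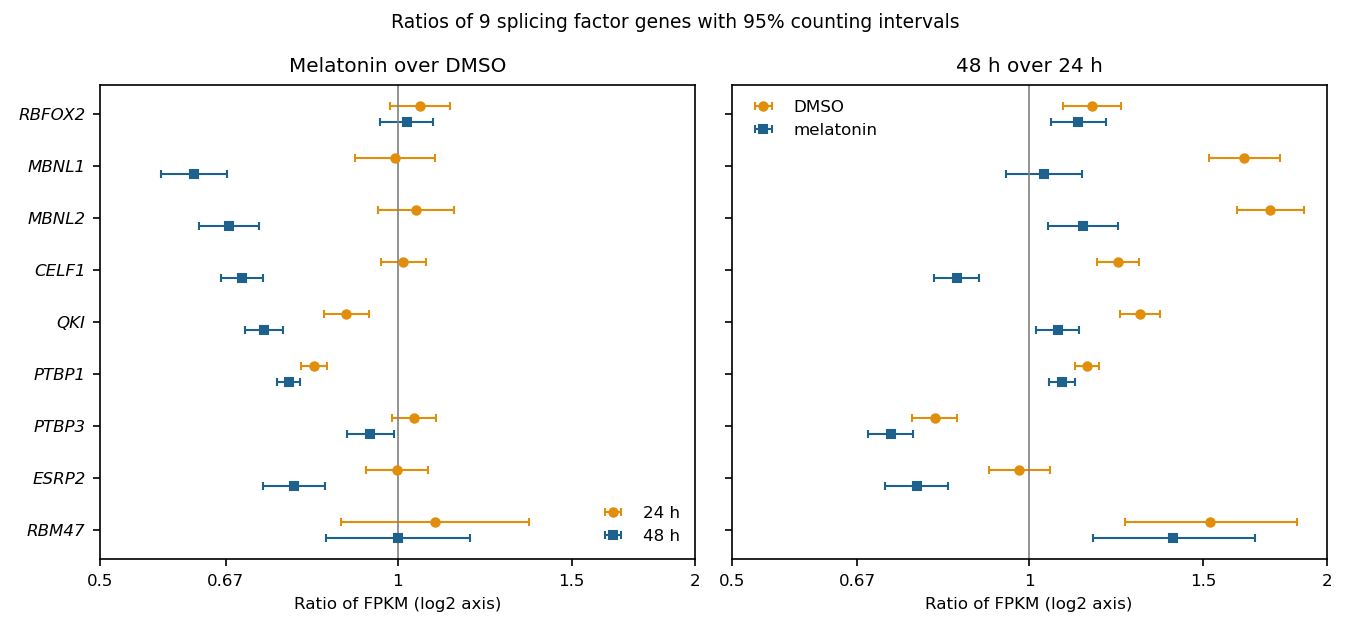
Ratios of FPKM for 9 of the genes (ESRP1 is left out), on a log2 axis, with 95% exact counting intervals as lines. The left panel gives melatonin over DMSO at 24 h (circles) and 48 h (squares), and the right panel 48 h over 24 h with DMSO (circles) and with melatonin (squares). In the left panel the squares of MBNL1, MBNL2, CELF1, QKI, PTBP1 and ESRP2 lie between 0.62 and 0.79, and in the right panel the circles of MBNL1 and MBNL2 lie at 1.65 and 1.75.

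None of the 9 genes passed a 2-fold threshold, meaning a difference of 1 or more in either direction on the log2(FPKM + 1) scale, in any of the 4 comparisons. Over all genes tested 4.35% passed it for melatonin over DMSO at 24 h, 5.72% at 48 h, 7.74% between the DMSO libraries and 4.15% between the melatonin libraries. At 1.5-fold, 0 of 9 passed at 24 h, where 11.6% of all genes tested did. At 48 h only MBNL1 passed, with a log2 fold change of -0.59 just beyond the threshold of 0.58. MBNL2 at -0.53 was just short of it. Of all genes tested 18.7% passed at 48 h in either direction, and 8.62% passed as higher. The changes were thus modest in size, and their count past a fold threshold was no higher than the background counted in either direction.

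At 24 h the genes were closer together. Of the 9, 2 were lower with melatonin by more than counting error and 0 were higher, beside 23.1% and 32.6% of the 11350 genes. PTBP1 had a ratio of 0.824 (0.799 to 0.849), and QKI of 0.888 (0.842 to 0.935). On the log2(FPKM + 1) scale the value of QKI was -0.15, and 0.002 after rescaling to TPM, where the median of all genes tested was 0.19, while PTBP1 was below 0 under each of the 9 settings run. On the FPKM scale MBNL1, MBNL2, CELF1, ESRP2, PTBP3, RBFOX2 and RBM47 had ratios between 0.994 and 1.09, with intervals that included 1. The median log2 fold change of the 9 genes was 0.02, the same as over all genes tested. With TPM, RBFOX2, MBNL2, PTBP3, CELF1, ESRP2 and MBNL1 stood between 0.15 and 0.24, higher by more than counting error. The median of all genes tested was 0.19 on that scale.

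The ratio of melatonin over DMSO was then compared between the times. For MBNL1 the log2 ratio at 48 h minus that at 24 h was -0.67 (95% counting interval -0.85 to -0.50), for MBNL2 -0.63 (-0.79 to -0.47) and for CELF1 -0.54 (-0.65 to -0.44). ESRP2 followed with -0.35 (-0.49 to -0.20) and QKI with -0.28 (-0.38 to -0.18). For PTBP1 and PTBP3 the differences were smaller, -0.09 (-0.14 to -0.03) and -0.15 (-0.25 to -0.04). The intervals of RBFOX2 (-0.18 to 0.09) and RBM47 (-0.51 to 0.26) included 0. PTBP1 was therefore already lower with melatonin at 24 h and by a similar ratio at 48 h. On the FPKM scale MBNL1, MBNL2, CELF1 and ESRP2 differed between melatonin and DMSO in the libraries of 48 h. In those of 24 h they did not, beyond counting error, on that scale.

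Time in culture was described in the same way. The comparison of melatonin with DMSO at 48 h and that of 48 h with 24 h in DMSO share the DMSO library of 48 h, so their values are set side by side and neither is evidence for the other. Between the DMSO libraries, on the FPKM scale, 7 of 9 genes were higher at 48 h by more than counting error and PTBP3 was lower. Among the 11350 genes 35.0% were higher and 36.4% lower. MBNL2 was 1.75-fold (1.62 to 1.90) and MBNL1 1.65-fold (1.52 to 1.79) higher at 48 h, and these 2 genes passed 1.5-fold. Of all genes tested 23.8% passed it in either direction, and 11.2% passed it as higher. RBM47 stood at 1.52 (1.25 to 1.86), QKI at 1.29 (1.23 to 1.36), CELF1 at 1.23 (1.17 to 1.29), RBFOX2 at 1.16 (1.08 to 1.24) and PTBP1 at 1.14 (1.11 to 1.18). PTBP3 stood at 0.802 (0.761 to 0.846), a log2 fold change of -0.30 that became 0.18 after rescaling to TPM. ESRP2 stood at 0.978 (0.911 to 1.05), a log2 fold change of -0.03 that became 0.46 with TPM. The median of all genes tested was 0.47 on that scale.

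Between the melatonin libraries the spread was narrower. MBNL1 had a ratio of 48 h over 24 h of 1.03 (0.947 to 1.13) and MBNL2 of 1.13 (1.04 to 1.23). With melatonin both thus stood near their levels of 24 h on the FPKM scale. Their log2 fold changes of 0.04 and 0.17 became 0.30 and 0.44 with TPM, where the median of all genes tested was 0.21. CELF1 was lower at 48 h, at 0.844 (0.802 to 0.889), although its log2 fold change of -0.23 became 0.03 with TPM. ESRP2 at 0.769 (0.715 to 0.828) and PTBP3 at 0.724 (0.688 to 0.763) were lower, and RBM47 at 1.40 (1.16 to 1.69) was higher. These directions were the same under each setting run, although with TPM the log2 fold change of ESRP2, -0.10, was within counting error. In all, 5 of 9 genes were higher and 3 lower by more than counting error on the FPKM scale, beside 24.0% and 37.2% of the 11350 genes. None passed 1.5-fold, where 12.8% of all genes tested did. On the FPKM scale RBM47 was higher and PTBP3 lower at 48 h with both treatments, although with TPM the direction of PTBP3 between the DMSO libraries was the opposite.

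These comparisons over time depend on the scale. Rescaling to TPM moved the median of all genes tested from 0.00 to 0.47 between the DMSO libraries, from -0.04 to 0.21 between the melatonin libraries and from 0.02 to 0.19 for melatonin over DMSO at 24 h. For melatonin over DMSO at 48 h the median stayed between -0.07 and 0.04 under all settings. MBNL1 ranged from -0.70 to -0.53, MBNL2 from -0.61 to -0.47 and CELF1 from -0.57 to -0.43. QKI ranged from -0.49 to -0.35, PTBP1 from -0.42 to -0.29 and ESRP2 from -0.39 to -0.26. PTBP3 ranged from -0.14 to -0.02, so whether it was lower by more than counting error depended on the setting. RBFOX2 ranged from -0.02 to 0.09, so whether it was higher by more than counting error also depended on the setting. RBM47 ranged from -0.04 to 0.04.

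**Figure D3:**
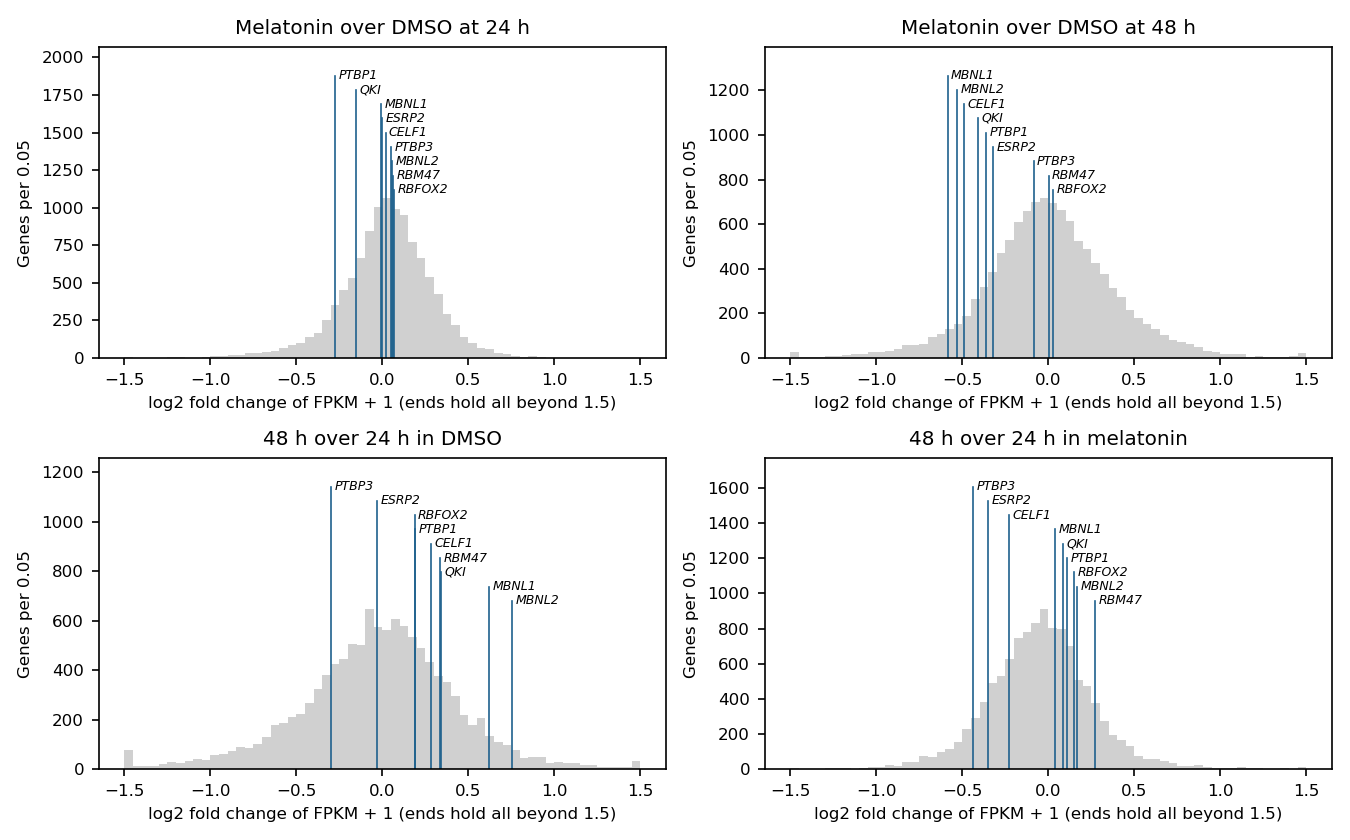
Distribution of log2 fold changes of FPKM + 1 over the 11350 genes with 50 reads or more throughout (grey bars, number of genes per 0.05) in the 4 comparisons, with a line for each of 9 splicing factor genes. For melatonin over DMSO at 48 h 6 lines lie between -0.59 and -0.32, and 7 of the 9 lines of the 24 h panel lie near the middle, between -0.01 and 0.07.

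The levels were next set beside those of the paralogues that the choice of genes left out, since a ratio between genes within a library does not depend on the library size. Such a ratio does depend on the gene lengths used. MBNL3, the third muscleblind gene, was the most abundant of its family, with 33.2, 32.2, 35.2 and 22.8 FPKM. The melatonin library of 48 h was the low one, and the ratio at 48 h was 0.647 (0.627 to 0.669), within the range of MBNL1 and MBNL2. The summed FPKM of the 3 genes was 48.2, 47.7, 61.1 and 39.8. MBNL3 made up 68.8% of it with DMSO at 24 h and 57.6% with DMSO at 48 h, and 67.6% and 57.2% with melatonin, so within the family the shares differed more between times than between treatments. The ratio of MBNL2 over MBNL1 ran from 2.21 (2.01 to 2.43) with DMSO at 24 h to 2.55 (2.35 to 2.76) with melatonin at 48 h.

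In the PTBP family PTBP1 made up between 73.8% and 83.0% of the summed FPKM. Its ratio over PTBP3 was 3.69 (3.54 to 3.85), 2.93 (2.81 to 3.05), 5.27 (5.05 to 5.50) and 4.36 (4.17 to 4.55). It was lower with melatonin at both times and higher at 48 h with both treatments, with no overlap of intervals. PTBP2, the form known from neurons, stayed low at 0.754, 0.755, 1.17 and 0.842 FPKM, from 179 to 332 reads. Its ratio of melatonin over DMSO was 1.00 (0.814 to 1.23) at 24 h, where PTBP1 was lower, and 0.720 (0.607 to 0.852) at 48 h. The GC content of the longest transcript was 61.7% for PTBP1, the highest of the 10 genes, and 36.6% for PTBP3, the lowest, and a correction of fold changes for GC content and length, added after seeing the data, brought the log2 fold change of PTBP1 for melatonin over DMSO to -0.30 at 24 h (-0.28 uncorrected) and -0.32 at 48 h (-0.36 uncorrected). That of PTBP3 became -0.01 at 24 h (0.05 uncorrected, with an interval that included 1) and -0.11 at 48 h (-0.09 uncorrected), so PTBP1 stayed below PTBP3 at both times.

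**Figure D4:**
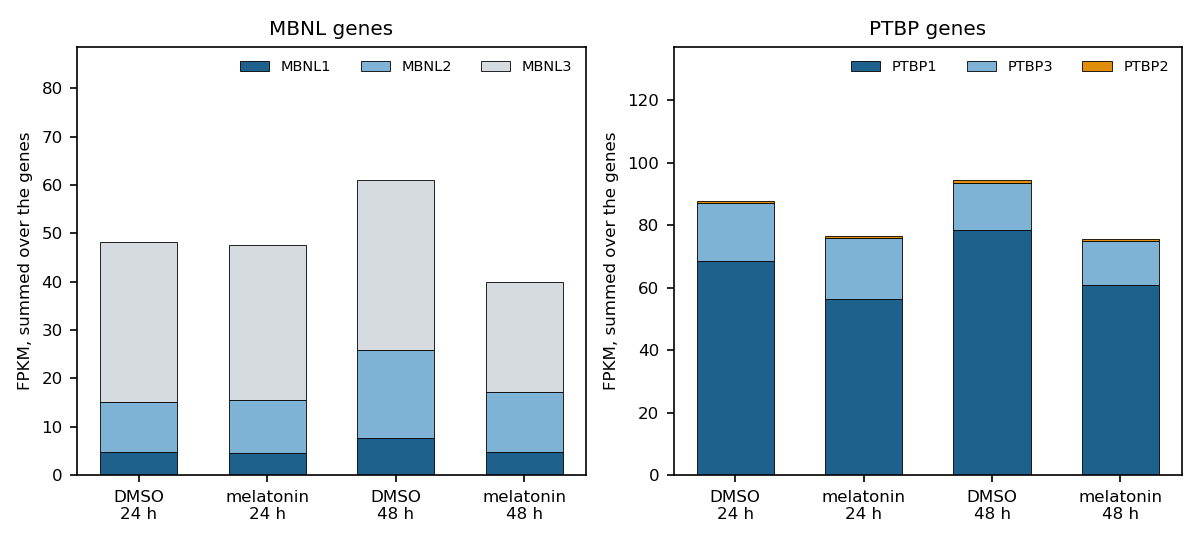
Summed FPKM of the MBNL genes (left) and the PTBP genes (right) in the 4 libraries, stacked by gene on linear axes from 0, without error bars. The MBNL sum was highest with DMSO at 48 h (61.1) and lowest with melatonin at 48 h (39.8), and PTBP1 made up at least 73.8% of each PTBP bar.

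A1CF, the closest relative of RBM47 and a cofactor of apolipoprotein B mRNA editing, went another way than RBM47. It had 10.9, 7.06, 7.07 and 5.05 FPKM. It was lower with melatonin at both times, with ratios of 0.648 (0.604 to 0.695) and 0.714 (0.659 to 0.772). The ratio of A1CF over RBM47 was 10.9 (9.30 to 13.0), 6.51 (5.58 to 7.62), 4.67 (4.11 to 5.31) and 3.32 (2.92 to 3.80). CELF5 had 34 to 98 reads per library and was the only other paralogue above a handful of reads. It had 0.307, 0.466, 0.341 and 0.733 FPKM, under the minimum of 1 FPKM, and its ratio of melatonin over DMSO was 1.52 (0.98 to 2.39) at 24 h and 2.15 (1.5 to 3.13) at 48 h, the opposite direction to MBNL3, PTBP2 and A1CF at 48 h. RBFOX1, RBFOX3, CELF2, CELF3, CELF4 and CELF6 had at most 9 reads in any library, so RBFOX2 and CELF1 supplied nearly all transcripts of their families that were detected at this depth.

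A list of 34 further regulators of alternative exons and a list of 29 core spliceosome genes were described in the same way. For melatonin over DMSO at 48 h the median log2 fold change was -0.13 over the 25 regulators tested and -0.15 over the 29 spliceosome genes, against -0.36 for the 9 genes above. The counting interval lay below 1 for 13 and above 1 for 6 of 24 regulators, and for 16 and 6 of 29 spliceosome genes, beside 35.0% and 33.4% of the 11350 genes. At 24 h the counts were 11 and 3 of the regulators and 9 and 4 of the spliceosome genes, beside 23.1% and 32.6%. At 1.5-fold EWSR1, FUBP1 and DAZAP1 among the regulators and SNRNP70, of the U1 particle, among the spliceosome genes were lower with melatonin at 48 h, and these 4 were named after their values were seen. Of all genes tested 18.7% passed that threshold in either direction, and 8.62% passed as higher. These counts did not exceed the background counted in either direction. EWSR1 had 23.3, 17.5, 36.5 and 19.4 FPKM. RBM39 alone among them passed 2-fold in a comparison, 48 h over 24 h in DMSO, with 38.5, 34.5, 80.9 and 55.6 FPKM.

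Because ESRP genes are tied to epithelial identity and MBNL, QKI and RBFOX2 have been linked to its loss, 6 epithelial and 8 mesenchymal genes were listed. All 6 epithelial genes had counting intervals below 1 for melatonin over DMSO at 48 h, at a median of -0.51 on the log2 scale, and 5 of 6 did at 24 h, at a median of -0.43, beside 35.0% and 23.1% of the 11350 genes. E-cadherin (CDH1) was low throughout, at 2.79, 1.36, 1.74 and 0.758 FPKM. EPCAM stood at 63.7 (DMSO) and 36.4 FPKM (melatonin) at 48 h, and KRT18 at 86.3 and 50.5 FPKM. The lower levels of the epithelial genes with melatonin at 48 h are given beside that of ESRP2. At 24 h the ratio of ESRP2 was 0.998 (0.929 to 1.07). The part of the epithelial genes in the level of ESRP2, or of ESRP2 in theirs, was not tested. Of the mesenchymal genes 4 reached 1 FPKM, with medians of 0.11 at 24 h and -0.11 at 48 h. Vimentin (VIM) stayed at or below 0.0530 FPKM, and ZEB1, a known repressor of ESRP1, lay between 2.33 and 2.88 FPKM. The matrix gene FN1 had 1238, 1082, 1439 and 1699 FPKM and a ratio of 1.18 (1.18 to 1.19) at 48 h, N-cadherin (CDH2) had 24.5, 29.6, 42.2 and 37.8 FPKM and a ratio of 0.894 (0.857 to 0.932), and SNAI1 had 1.32, 1.46, 2.60 and 1.31 FPKM and a ratio of 0.504 (0.350 to 0.718) from 49 and 96 reads. ZEB2, SNAI2 and TWIST1 had at most 6 reads in any library. The mesenchymal genes thus went in no common direction.

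MBNL2 had the widest range over the 4 libraries of the 10 genes, 0.75 on the log2(FPKM + 1) scale. Of 11349 other genes with 50 reads or more throughout, the 3 with the smallest root mean square difference from its centred profile were ZDHHC8 (0.0157), CLCN7 (0.0163) and NPTN (0.0268). ZDHHC8 had 5.74, 5.84, 10.3 and 6.68 FPKM, so that its DMSO library of 48 h was again the high one. Likeness over 4 libraries is a description only.

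For CELF1, ESRP2 and RBM47 the totals carry a limit from overlapping genes or from sequence shared with other genes. CELF1 overlaps the genes NDUFS3 (897 to 950 reads per library) and PTPMT1 (50 to 79 reads) on the opposite strand, and ESRP2 overlaps NFATC3 (1656 to 2355 reads) on the opposite strand, and whether the counting used strand is not given in the sources used here. Of the words of 50 bases in the longest GENCODE 44 transcript, 1.89% of those of ESRP2 and 0.514% of those of RBM47 also occur in transcripts of other genes. The share was 0% for the other 8, MBNL1, MBNL2, PTBP1 and PTBP3 included. Words were searched in the same orientation only, so sequence shared with transcripts of the opposite strand is not counted.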

How the data were processed

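Per the methods, polyadenylated RNA was sequenced in paired ends and mapped to hg38 with MapSplice, and the expression level was taken from the mapped reads with Cufflinks. The submitters' processing notes list Bowtie2 2.0.6, TopHat2 2.0.9, Cufflinks 2.1.1 and Cuffdiff 2.1.1, and which of them made the deposited values is not given in the sources used here. The authors deposited FPKM per Ensembl gene with the gene length and no read counts. The other columns used were gene name, coordinates and length, and the way the length was set is not stated. For 9 of the 10 genes it exceeds the longest GENCODE 44 transcript, which lowers their FPKM.

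Reads were recovered as FPKM times length over the step of each library. All values above 0 were whole within 0.05 reads. The denominators of the FPKM amounted to 0.849 to 0.973 of the reads on genes, and how they were set is not stated. Intervals are 95% exact Poisson (levels) and exact conditional binomial (ratios), and those of the log2 difference between times are Wald intervals. Fold changes across all genes used a pseudocount of 1 and genes reaching 1 FPKM in one of the pair, with thresholds of 2-fold and 1.5-fold. No test was run, since each condition has 1 library.

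The 10 genes and all lists were chosen with earlier results of these data known. Named genes were the 10, their paralogues, genes of the other lists past 2-fold and the 3 genes most like the one with the widest range. Marker, epithelial and mesenchymal genes, and regulators and spliceosome genes past 1.5-fold, were named outside this rule, as examples chosen after their values were seen. Alternatives were a pseudocount of 0.1, no minimum, a minimum of 5 FPKM, the lower threshold of 1.5-fold, median centring, TPM, the sum of reads as library size and leaving out mitochondrial genes. The correction for GC content and length, and the background of genes with 50 reads in every library for the ratio intervals, were chosen after seeing the data. All 10 matched GENCODE 44 by gene ID, and by gene name each lay on the chromosome that the files give. The start or end of RBFOX2, ESRP2, PTBP3 and QKI differed from that in GENCODE 44, and the coordinates given above are those of the files. Read recovery, calls and interval coverage were tested on simulated data. Protein identity between paralogues was planned and not computed. Python 3.11, numpy 2.4.6, pandas 2.3.3, scipy 1.17.1 and matplotlib 3.10.9 were used.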

Additional observations from a re-analysis of the deposited data

How the results depend on the processing

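Under the 2-fold threshold 0 of 9 genes passed in each comparison. With a 1.5-fold threshold the count was 1 for melatonin over DMSO at 48 h and 2 for 48 h over 24 h in DMSO. With TPM the count past 2-fold was also 2 for 48 h over 24 h in DMSO, both higher. Of all genes tested 18.2% passed 2-fold on that scale in either direction, and 15.3% passed as higher. The median log2 fold change of the 9 genes moved by more than their typical counting error with TPM, to 0.19 for melatonin over DMSO at 24 h, 0.78 for 48 h over 24 h in DMSO and 0.36 in melatonin, and with the sum of reads as library size to 0.40 and 0.20 for these 2 comparisons over time. By construction these settings shift all genes of a library together. For melatonin over DMSO at 48 h no setting run moved the median by more than that error. No gene past the threshold changed sign, since none was past it. A fit that pairs melatonin with DMSO within each time, which has 1 residual degree of freedom, was not run. Depth limits RBM47 and PTBP2, with 156 to 332 reads per library, and ESRP1, at 0 to 3 reads. With no replicate, differences between cultures treated alike are unknown here.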

Other observations

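Among the hepatocyte and hepatoblast markers used to check the cell line, AFP and TTR passed 2-fold for melatonin over DMSO at 48 h, which is no evidence on the splicing factors. AFP, the fetal liver plasma protein, had 1131, 985, 1902 and 782 FPKM, with 24 h before 48 h and, within each time, DMSO before melatonin. TTR, the thyroxine carrier transthyretin, had 41.9, 46.8, 50.6 and 256 FPKM, so the melatonin library of 48 h was the high one. HNF4A, which controls many hepatocyte genes, had 59.5, 53.7, 34.9 and 43.8 FPKM and did not pass. No replicate check exists for these values.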
